A study of Drosophila melanogaster with 12 samples.

Results

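The Polycomb group genes Pc, ph-p, ph-d, Psc, Su(z)2, Sce, E(z), esc and Su(z)12 were examined for RNA polymerase II whose C-terminal repeats were phosphorylated at Serine 5, a form called Pol II S5. They were taken by symbol from the Ensembl annotation of the Drosophila melanogaster genome, where all 9 were found among 18277 genes, 13968 of them protein-coding. Kc167 cells, a hemocyte-like line of embryonic origin, were profiled by ChIP-seq (sequencing of immunoprecipitated chromatin), and enrichment was called as broad enriched regions (peaks) in each library. The 3 groups were mock-treated cells (mock), AGO2 knockdown cells (AGO2 KD) and LaminB knockdown cells (LaminB KD), all collected 3 days after transfection. In AGO2 KD, 100 pmol of small interfering RNA targeted AGO2, and in LaminB KD, 2 µg of double-stranded RNA targeted LaminB. Mock cells received neither kind of RNA. Loss of the target and delivery of the RNA therefore cannot be told apart, and the knockdowns differ in the kind of RNA as well as in target. Each group had 2 replicate libraries, and the labels do not say whether the replicates were separate cultures, so tests may cover technical spread only. The study asked whether loss of AGO2, an Argonaute protein, alters polymerase on genes, with LaminB, a protein of the nuclear lamina, as the comparison for specificity. All libraries come from a single cell line, so that the number of cells with polymerase on a gene and the amount per cell cannot be told apart.

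Polycomb group proteins keep developmental genes silent once their off state is set, and were found through fly mutants in which segments take on the wrong identity. They work in 2 complexes. Polycomb repressive complex 2 (PRC2) methylates the tail of histone H3, and Polycomb repressive complex 1 (PRC1) binds that mark, ubiquitylates histone H2A and compacts chromatin. Pc, ph-p, ph-d, Psc, Su(z)2 and Sce encode PRC1 subunits, and E(z), esc and Su(z)12 encode PRC2 subunits. The genes examined here encode this silencing machinery and were read as transcribed genes, so that the values describe polymerase on them and not Polycomb binding.

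The 6 lists differed in extent before any gene was considered. They held between 5108 and 8541 peaks, covering between 4.19 and 14.6 Mb. The extremes were the LaminB KD libraries, with LaminB KD replicate 1 the most extensive and replicate 2 the least. Sequencing depth is unknown from peak lists. Of 7 hemocyte markers, 5 had a promoter peak in all 6 libraries, and NimC1 and eater had none in any. Of 2 crystal cell genes, lz had one in 5 libraries and PPO1 in none, and of 4 genes that mark other cells, vas (germline) had one in 6 libraries, elav (neurons) in 5, grh (epidermis) in 1 and Mhc (muscle) in none. A promoter peak need not lie in the gene, nor a peak in the gene at its promoter. Peaks covered 0% of lz in every library but LaminB KD replicate 1, at 0.395%. By contrast, grh was covered at 1.53% and 1.72% in mock replicates 1 and 2. It was covered at 1.29% in AGO2 KD replicate 2, 4.10% in LaminB KD replicate 1 and 0% in the other libraries. Both knockdowns act on transcripts, so peaks on the targeted genes do not check the labels.

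The sequences just upstream of the starts are shown because a peak covered most of these starts in every library, and because ph-p and ph-d are near copies of each other there. Each is read 5′ to 3′ on the minus strand of dm6, the strand of these genes, up to 150 bases and without annotated exons of any gene. They span chr3L:21318021-21318170 for Pc, chrX:2136856-2137005 for ph-p, chrX:2123287-2123436 for ph-d, chr3R:27682030-27682179 for Sce, chr2L:11829406-11829555 for esc, chr3L:19923463-19923612 for Su(z)12 and chr3L:10638131-10638145 for E(z), where only 15 bases separate the gene from Cnep1r2. For ph-p, the stretch shown precedes the second of its 3 annotated starts. Capitals mark GAGAG, the core of the motif bound by GAGA factor, on either strand.
Pc: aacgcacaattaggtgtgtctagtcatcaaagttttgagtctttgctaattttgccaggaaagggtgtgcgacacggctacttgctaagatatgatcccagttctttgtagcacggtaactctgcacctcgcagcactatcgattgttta
ph-p: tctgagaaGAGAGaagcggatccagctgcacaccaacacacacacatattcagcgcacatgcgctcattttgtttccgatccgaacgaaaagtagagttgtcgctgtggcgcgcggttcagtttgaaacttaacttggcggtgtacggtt
ph-d: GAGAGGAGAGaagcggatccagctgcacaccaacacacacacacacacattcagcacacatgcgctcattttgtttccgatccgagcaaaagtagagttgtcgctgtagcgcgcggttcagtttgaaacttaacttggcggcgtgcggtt
Sce: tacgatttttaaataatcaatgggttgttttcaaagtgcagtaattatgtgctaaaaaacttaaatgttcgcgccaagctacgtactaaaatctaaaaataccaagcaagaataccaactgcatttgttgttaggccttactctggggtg
esc: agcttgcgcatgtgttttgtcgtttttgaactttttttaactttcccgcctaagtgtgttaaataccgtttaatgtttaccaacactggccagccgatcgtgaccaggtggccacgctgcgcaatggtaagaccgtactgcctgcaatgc
Su(z)12: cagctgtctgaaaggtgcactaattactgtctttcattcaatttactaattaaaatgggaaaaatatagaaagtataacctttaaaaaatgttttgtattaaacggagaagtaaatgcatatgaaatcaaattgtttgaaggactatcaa
E(z): acgggctgcgtttct

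The stretches of ph-p and ph-d aligned over 146 positions, of which 139 (95.2%) were identical. A peak covered part of the stretch shown in 6 of 6 libraries for Pc, ph-p, ph-d and esc, in 5 for Sce and Su(z)12, and in 2 for E(z). GAGAG, searched on both strands with overlapping matches counted, lay within 150 bases upstream of the most upstream start of ph-p, ph-d, Su(z)2 and E(z), which is 4 of 9 members, and of 18.1% of all 13968 protein-coding genes. At E(z) the match began 28 bases before the start, inside Cnep1r2. The most upstream start of ph-p was under a peak in 2 of 6 libraries. The 4 of 9 members and the 18.1% were not tested against each other. Psc had GAGAG before its second start only. The Pho core GCCAT, at 23.8% of all these starts, and TATAAA, at 29.2%, were each found at the most upstream start of 1 member, ph-p, and at the second start of E(z). TATCGATA (6.78% of starts) and GGTCACACT (2.55%) were found for no member. A match is a string of letters and says nothing of occupancy by the factor.

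All 9 genes carried Pol II S5 in every library. Each had a peak within 1500 bp of an annotated start (a promoter peak) and a peak in the gene in 6 of 6 libraries. A peak in the gene in all 6 was held by 38.2% of protein-coding genes. With the upper 50% of peaks of each list by score, between 4 and 8 members kept a promoter peak. No share over all genes is given for promoter peaks, so these promoter counts cannot be read as an excess. The plot of peaks along the genes shows that the signal lay at the 5′ end of the long genes and over most of the short ones.

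**Figure D1:**
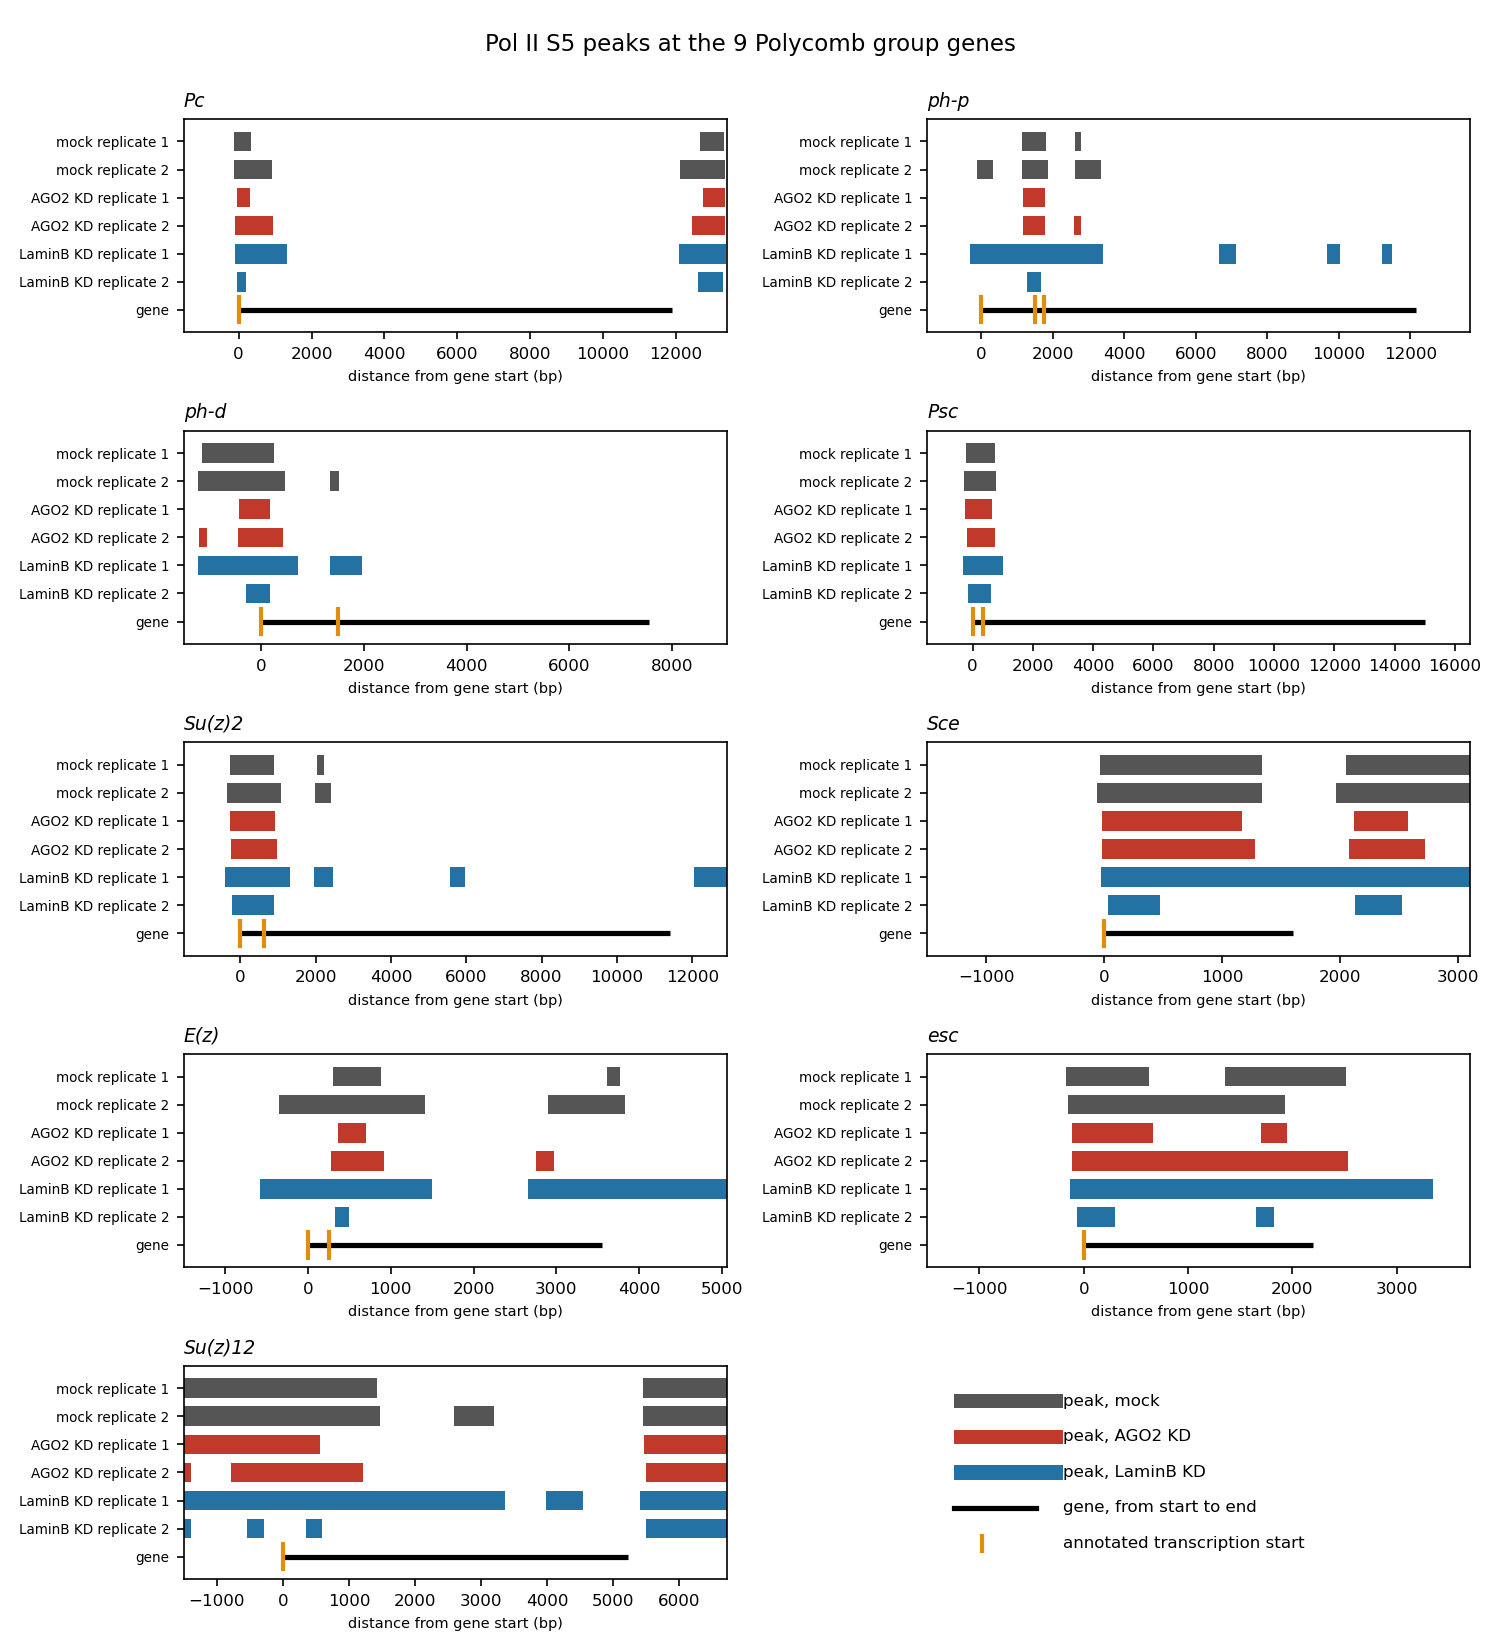
Pol II S5 peaks at the 9 Polycomb group genes, drawn by distance from the most upstream annotated start (bp), with 1 row of bars for each library and the gene and its annotated starts underneath. Bars are clipped 1500 bp beyond the gene on either side, and the bars of LaminB KD replicate 1 cover the most and those of LaminB KD replicate 2 the least of each gene, with a tie at esc at 100%.

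Psc (FBgn0005624, chromosome 2R, 12965997 to 12980994, minus strand) encodes a RING finger protein of PRC1 that compacts chromatin. Its covered share, the percentage of the gene's length under peaks, was 4.97% and 5.18% in mock replicates 1 and 2, the order used throughout. After AGO2 depletion it was 4.39% and 5.04%, and after LaminB depletion 6.76% and 4.03%. These were the tightest values of any member, and the groups overlapped in both comparisons. A single peak covered both annotated starts in all 6 libraries, and 757 bp from 152 bp upstream to 604 bp downstream of the start lay under peaks in every one. Of the covered bases in the gene, those in 5 of 6 libraries were exonic throughout, with 0.773% of intron covered in LaminB KD replicate 1 alone.

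Su(z)2 (FBgn0265623, chromosome 2R, 12996501 to 13007911, plus strand), a paralog of Psc, lies 15506 bp away in the opposite orientation. Peaks covered 9.40% and 13.3% of the gene in mock, 8.11% and 8.44% after AGO2 depletion, and 19.6% and 7.87% after LaminB depletion. Both AGO2 KD libraries lay below both mock libraries, while LaminB KD lay on both sides. The peak over its starts spanned 1130 bp common to all 6 libraries, from 232 bp upstream to 897 bp downstream. A separate intronic peak further in covered 175 bp between 2036 and 2210 bp downstream in both mock libraries. It was also present in LaminB KD replicate 1, and absent from LaminB KD replicate 2 and both AGO2 KD libraries. Exons of Su(z)2 were covered at 5.97% in 5 of 6 libraries, and introns between 10.6% and 23.7% in the same 5, so that the spread between them lay in introns.

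ph-p (FBgn0004861, chromosome X, 2126210 to 2138371, minus strand) encodes Polyhomeotic, a PRC1 subunit whose SAM domain polymerizes. Covered shares were 6.96% and 14.5% for mock, 5.11% and 6.53% for AGO2 KD, and 37.2% and 3.43% for LaminB KD. Both AGO2 KD libraries lay below both mock libraries, but the nearest libraries of the groups were only 0.428 percentage points apart. Of its 3 annotated starts, the one 1516 bp downstream of the first was under a peak in 6 of 6 libraries and the one 1749 bp downstream in 5. The most upstream start was under a peak in 2, mock replicate 2 and LaminB KD replicate 1. The stretch common to all 6 libraries was 417 bp long, from 1273 to 1689 bp downstream, and 174 bp of it were exonic.

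ph-d (FBgn0004860, chromosome X, 2115727 to 2123286, minus strand), the second polyhomeotic copy, begins 2923 bp beyond the end of ph-p. Peaks took up 3.24% and 8.56% of it in mock, 2.37% and 5.54% upon loss of AGO2, and 17.9% and 2.31% upon loss of LaminB. The groups overlapped in both comparisons. The first start was under a peak in 6 of 6 libraries and the start 1494 bp downstream in 2. Upstream of the gene, 610 bp between 1054 and 445 bp before the start were under the start peak in both mock libraries. They were under no peak in either AGO2 KD library or in LaminB KD replicate 2. AGO2 KD replicate 2 had a separate peak beyond that stretch.

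Pc (FBgn0003042, chromosome 3L, 21306138 to 21318020, minus strand) encodes the chromodomain protein of PRC1 that recognizes methylated histone H3. The covered share of Pc was 2.88% and 7.60% for mock, 2.71% and 7.97% for AGO2 KD, and 11.2% and 1.71% for LaminB KD. The groups overlapped, and within mock and AGO2 KD replicate 2 lay well above replicate 1. A single peak covered the start in every library, with 235 bp in common, and reached between 202 and 1326 bp downstream. Rab26 and a long noncoding RNA start within 1500 bp of Pc, and its end overlaps CG7632, so a peak there may belong to more than 1 gene.

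Sce (FBgn0003330, chromosome 3R, 27680431 to 27682029, minus strand) encodes the ubiquitin ligase of PRC1. At 1599 bp it is the shortest member and had the largest mean covered share in mock, with 83.6% and 83.8% for mock, 73.1% and 80.05% for AGO2 KD, and 100% and 27.7% for LaminB KD. Mock libraries agreed closely, both AGO2 KD libraries lay below them, and the LaminB KD libraries held the highest and the lowest value. The peak in LaminB KD replicate 1 ran 4574 bp downstream, past the end of the gene. In LaminB KD replicate 2 it began 29 bp after the start, so that the start was under a peak in 5 of 6 libraries.

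E(z) (FBgn0000629, chromosome 3L, 10634575 to 10638130, minus strand) encodes the methyltransferase of PRC2. Covered shares of E(z) were 16.4% and 58.2% for mock, 9.45% and 24.1% for AGO2 KD, and 67.6% and 4.72% for LaminB KD. The mock libraries differed more from each other than the group means did, and AGO2 KD replicate 2 lay above mock replicate 1. Both annotated starts were under a peak only in mock replicate 2 and LaminB KD replicate 1. In the other 4 libraries the peak nearest the start began between 283 and 359 bp downstream of it, and 139 bp, between 359 and 497 bp downstream, were covered in all 6. Its start lies within 1500 bp of that of Cnep1r2, which is divergent, and its end overlaps CG34001. Peaks at that end ran past the gene, to 3826 bp downstream in mock replicate 2 and 7103 bp in LaminB KD replicate 1. Part of the covered share may therefore belong to another gene.

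esc (FBgn0000588, chromosome 2L, 11827204 to 11829405, minus strand) encodes a WD40 repeat protein of PRC2 that binds the methyl mark, and lies within the gene Pde1c. Peaks covered 67.0% and 87.6% of esc in mock, 41.5% and 100% after AGO2 depletion, and 100% and 21.5% after LaminB depletion. Each knockdown had a library on either side of both mock libraries. The start was covered in 6 of 6 libraries and 362 bp around it were common to all. A peak does not record the strand, so polymerase on esc and on Pde1c cannot be told apart.

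Su(z)12 (FBgn0020887, chromosome 3L, 19918242 to 19923462, minus strand) encodes the zinc finger subunit that PRC2 needs for activity. The covered share of Su(z)12 was 27.4% and 39.8% for mock, 10.9% and 23.4% for AGO2 KD, and 74.9% and 4.67% for LaminB KD. Both AGO2 KD libraries lay below both mock libraries. The peak over its start reached 1427 and 1466 bp downstream in mock, 566 and 1219 bp after AGO2 depletion, and 3359 bp in LaminB KD replicate 1. An exonic stretch of 208 bp, 1220 to 1427 bp downstream, was therefore under peaks in both mock and neither AGO2 KD library. In LaminB KD replicate 2 no peak covered the start or this exonic stretch. Upstream, the mock peaks ran on for 3368 and 3445 bp across Pfdn6 and Grasp65, whose starts lie within 1500 bp, so the peak is not that of Su(z)12 alone.

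In mock cells the members fell into 3 levels that followed gene length, which is also the denominator of the covered share. Sce (83.7% ± 0.133, SD, n = 2) and esc (77.3% ± 14.5) overlapped in their mock values, then came E(z) (37.3% ± 29.5) and Su(z)12 (33.6% ± 8.80), which overlapped each other. Su(z)2 (11.3% ± 2.73), ph-p (10.7% ± 5.33), ph-d (5.90% ± 3.76), Pc (5.24% ± 3.34) and Psc (5.08% ± 0.146) followed, each overlapping the next. Among all protein-coding genes with a peak in 6 of 6 libraries, the median covered share in mock was 77.5% and 87.2% at lengths of at most 3000 bp and 4.97% and 7.40% at 7000 bp or more. The Polycomb group medians were 75.3% and 85.7% for Sce and esc and 4.97% and 8.56% for the 5 longest members. Between these lengths, E(z) and Su(z)12 had medians of 21.9% and 49.0%, where all such genes had 25.0% and 35.4%, so that the members lay below in replicate 1 and above in replicate 2.

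**Figure D2:**
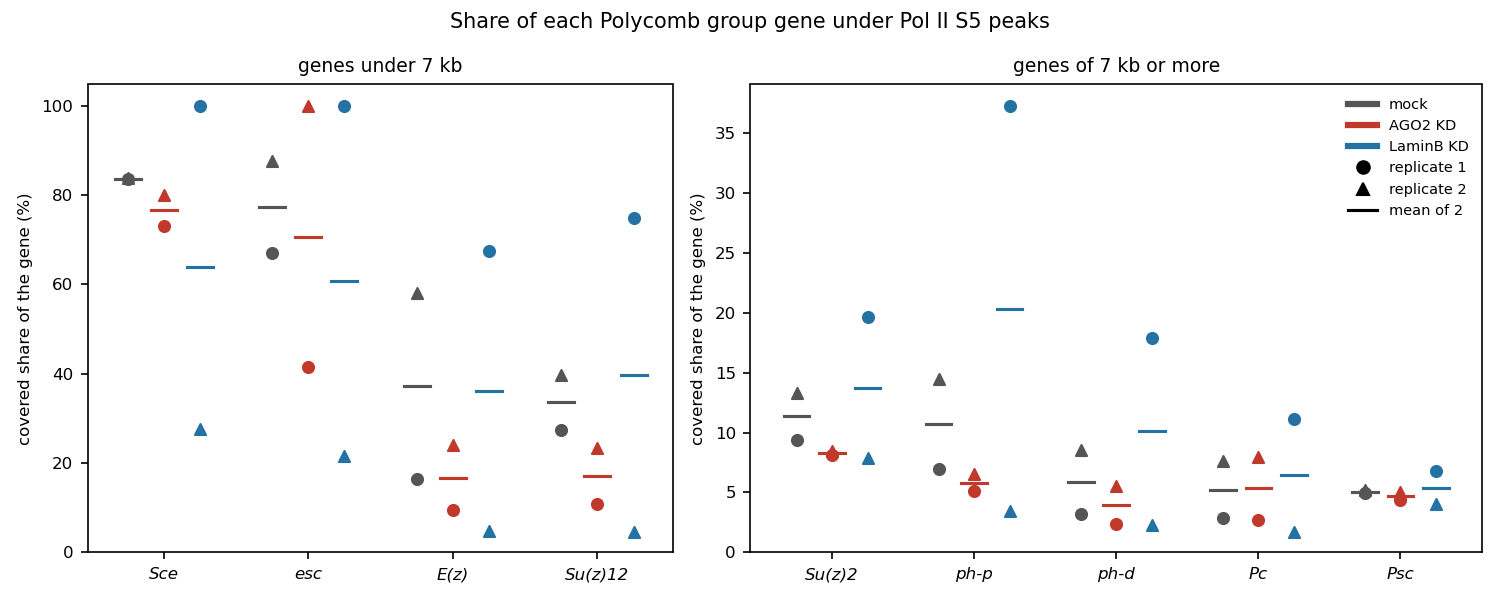
Covered share (% of gene length under peaks) of each member by group, with a circle for replicate 1, a triangle for replicate 2 and a line for the mean of both. The LaminB KD libraries bracket the others at all 9 genes, tied at esc by AGO2 KD replicate 2 at 100%, and AGO2 KD lies below mock without overlap at Sce, Su(z)12, Su(z)2 and ph-p.

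Upon AGO2 depletion, Sce, Su(z)12, ph-p and Su(z)2 had smaller covered shares in both libraries than in either mock library, and no member had larger ones in both. The difference of means was -7.13 percentage points for Sce, -16.5 for Su(z)12, -4.90 for ph-p and -3.06 for Su(z)2, each with an exact two-sided permutation p of 0.333, the smallest that 2 libraries against 2 allow. The nearest libraries of the groups were 3.56 points apart for Sce, 3.98 for Su(z)12 and 0.964 for Su(z)2. The pooled SD between replicates was 3.47 points for Sce, 8.82 for Su(z)12, 3.83 for ph-p and 1.94 for Su(z)2, smaller than each difference. The choice of these members fixed that, since 2 libraries against 2 without overlap cannot differ in mean by less than the pooled SD. It also fixed the exact permutation p at 0.333, so neither value adds to the finding of no overlap. Differences for the overlapping members were -20.5 points for E(z), -6.56 for esc, -1.94 for ph-d, -0.360 for Psc and 0.101 for Pc, with exact permutation p values between 0.667 and 1.

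These counts did not set the Polycomb group apart. A share of 4 of 9 members was lower, which is 44.4%, where percent called was 46.0 of the 5340 protein-coding genes with a peak in all 6 libraries and 23.8 of all protein-coding genes. For higher, the count was 0 of 9, beside 0.468 and 0.251 percent. The median difference was -4.90 points over the members and -4.41 over the genes with a peak in all 6 libraries. The AGO2 KD lists also covered less of the genome, 5.57 and 8.01 Mb against 8.27 and 10.5 Mb in mock, and its part in the lower shares was not tested. When each list was trimmed, best score first, to the covered length of the shortest, 1 member was lower, ph-p, beside 24.5 percent of the genes with a peak in all 6 libraries. Sce and Su(z)12 then kept a peak only in AGO2 KD replicate 1 of these 4 libraries, at 73.1% and 10.9%, so that their higher means in AGO2 KD, by 36.6 and 5.43 points, rested on that library alone. With equal numbers of peaks ph-p was no longer lower, and its difference was 0.144 points. Leaving out AGO2 KD replicate 2 raised the count of lower members to 9, beside 80.4 percent of those genes, and leaving out mock replicate 1 raised it to 7, beside 73.4 percent. Without mock replicate 2 the median difference shrank to -0.257 points.

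In the gene body, which leaves out the first 500 bp of the gene, the same 4 members were lower, with differences of -10.4 points for Sce, -18.2 for Su(z)12, -3.70 for ph-p and -3.20 for Su(z)2. The background was 35.2 percent of 5309 genes with a body and a peak in all 6 libraries and 17.3 percent of all 13502 genes with a body. The body of ph-d was covered in neither AGO2 KD library and, at 2.55%, only in replicate 2 of mock. No member had a stretch that was covered in both libraries of AGO2 KD but in neither mock library, and 1.72% of the genes with a peak in all 6 libraries had one. The converse inside the gene, covered in both mock and neither AGO2 KD library, held for 4 of 9 members and for 56.9% of those genes. Such stretches also lay within 1500 bp outside some members, with 610 bp at ph-d and 32 bp at esc. The share of all genes was not computed for this wider window, so no count is set beside 56.9%.

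In LaminB KD no member lay on one side of mock. The count was 0 of 9 for lower, beside 1.30 percent of all protein-coding genes and 2.17 percent of those with a peak in all 6 libraries. It was also 0 of 9 for higher, beside 0.158 and 0.300 percent. LaminB KD replicate 1 lay above both mock libraries and LaminB KD replicate 2 below both at every member, so that without replicate 1 all 9 were lower, beside 90.3 percent of the genes with a peak in all 6 libraries, and without replicate 2 all 9 were higher, beside 68.6 percent. Differences of means ran from -19.9 points for Sce to 9.62 for ph-p with a median of 1.20, and every exact permutation p was 1. Both comparisons share the mock libraries.

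Ranked within its own library, the start peak stood higher for Psc, Su(z)2, ph-p and ph-d than for the other 5 members in all 6 libraries. The start peak is the peak nearest any annotated start of the gene, and the strongest where several cover a start. The rank is the percentile of its −log10 q-value, the peak caller's adjusted significance, among all peaks of that library. For Psc, the highest member in 4 of 6 libraries, it was 94.6 and 96.7 for mock, 98.3 and 90.4 for AGO2 KD, and 99.5 and 65.4 for LaminB KD. Su(z)2 stood at 92.6 and 98.3, 88.0 and 97.6, and 98.8 and 54.7 in the same order. ph-p lay between 81.7 and 90.9 and ph-d between 81.4 and 93.0 in the 5 libraries other than LaminB KD replicate 2, in which they stood at 55.7 and 55.3. Pc had 70.4 and 74.3 for mock, 59.4 and 58.9 for AGO2 KD, and 62.2 and 26.4 for LaminB KD.

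In mock, the 4 members under 7000 bp ranked between 29.9 and 67.3 and the 5 longer ones between 70.4 and 98.3. Sce lay between 41.0 and 60.9 in all 6 libraries. E(z) had the lowest rank in 5 of 6, with 29.9 in each mock library, 13.6 and 29.6 for AGO2 KD, and 46.1 and 9.20 for LaminB KD. In LaminB KD replicate 2 Su(z)12 stood lower than E(z), at 5.03. Its start peak there lay between 537 and 292 bp upstream and covered no annotated start of Su(z)12. No value of E(z) reached the lowest of Psc. For ph-p in mock replicate 2 the peak over the other two starts was used, and a separate peak over the most upstream start had a −log10 q-value of 2.34 and a rank of 19.6, below every other member. The second start of ph-d likewise had a weaker peak of its own in mock replicate 2 and LaminB KD replicate 1, at ranks of 18.6 and 25.6. These ranks are a description within each list and carry no test.

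The values behind these ranks show how far the libraries differed. The fold of the peak over the start of Psc, the ratio of its pileup to local background, was 4.60 and 4.81 for mock, 6.08 and 3.61 for AGO2 KD, and 7.49 and 2.67 for LaminB KD. Its −log10 q-value was 17.1 and 28.1 for mock, 16.3 and 14.5 for AGO2 KD, and 88.0 and 3.12 for LaminB KD. In each knockdown group the replicates lay on either side of the mock pair in fold. At E(z) the fold lay between 2.87 and 3.46 in all 6 libraries and the −log10 q-value between 1.44 and 5.97. Lists were called separately, so these values are not scaled to one another.

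**Figure D3:**
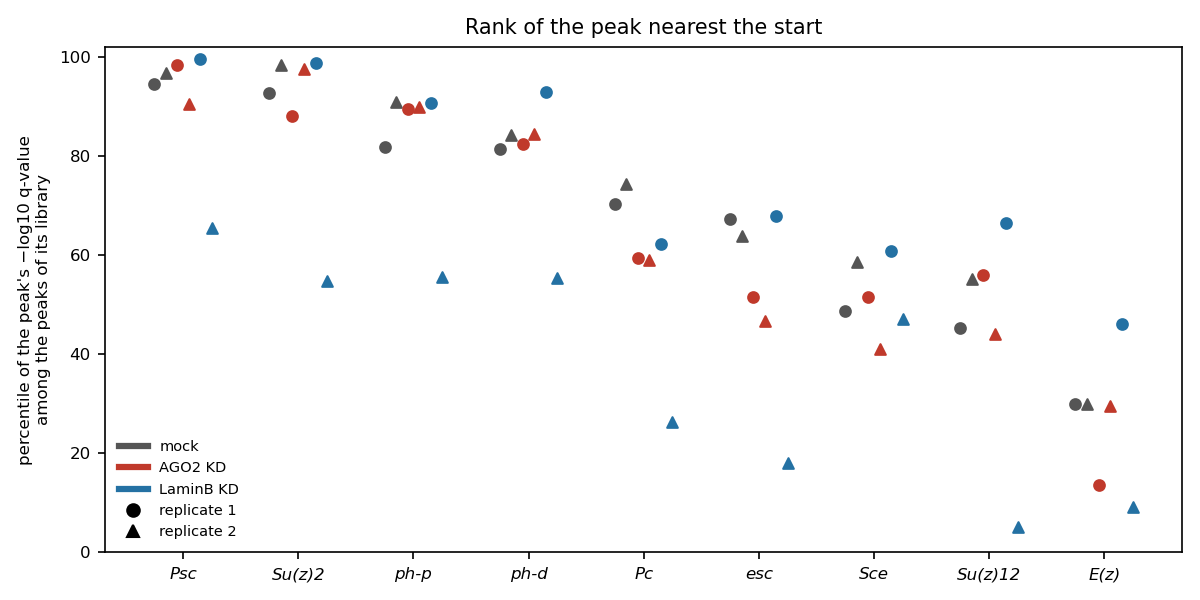
Percentile of the −log10 q-value of the start peak (nearest any annotated start, the strongest where several cover one) among all peaks of its library, for each member, with a circle for replicate 1 and a triangle for replicate 2. Psc and Su(z)2 sit at 88.0 or above in every library but LaminB KD replicate 2, and E(z) sits at 46.1 or below in all 6.

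Pc, ph-p and ph-d contain sequence that reads cannot place. The reads were 50 bases long and those mapping to several places were removed, so the share of 50-base stretches of each gene that occur again elsewhere in dm6 was computed. It was 76.1% for Pc, 30.2% for ph-p, 30.4% for ph-d and 0% for the other 6 members. In Pc the annotation places a roo element, a retrotransposon, of 9101 bp in an intron (chromosome 3L, 21306203 to 21315303), which makes up 76.6% of the gene. In ph-p it places an FB (foldback) transposon of 1446 bp in an intron (chromosome X, 2132105 to 2133550), and no peak touched either element in any library. All 2281 repeated stretches of ph-d had a copy in ph-p.

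**Figure D4:**
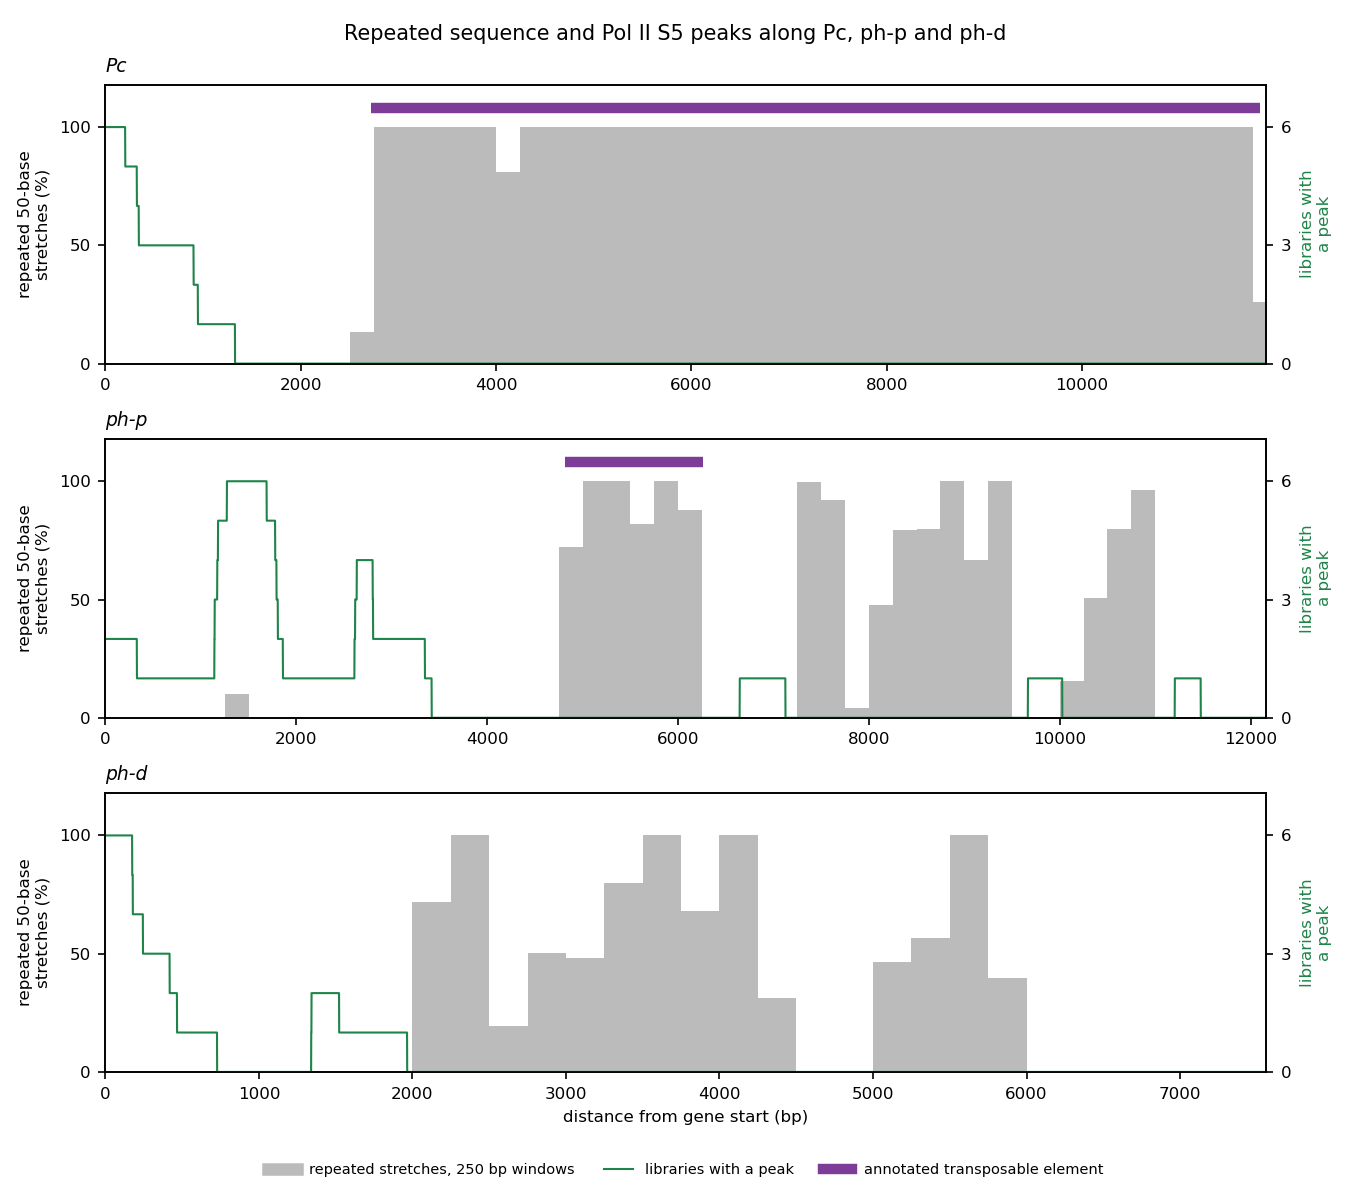
Share of repeated 50-base stretches in windows of 250 bp (grey bars, %), number of libraries with a peak (green line) and annotated transposable elements (purple bars) by distance from the start (bp) along Pc, ph-p and ph-d. The peaks present in all 6 libraries lie in bases that a unique 50-base stretch contains, also in the ph-p window where a small share of stretches is repeated, and the roo element of Pc and the FB element of ph-p are free of peaks.

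The peaks of these genes lay in readable sequence, with 0% of covered bases outside unique stretches at every member. Removal of reads mapping to several places largely fixed this beforehand, also for the roo and FB elements. It therefore gives little reading of polymerase on repeated sequence. Over the bases that a read can place, 25.0% of Pc, 74.4% of ph-p and 75.4% of ph-d, the shares were larger. For Pc they were 11.5% and 30.4% for mock, 10.8% and 31.8% for AGO2 KD, and 44.6% and 6.83% for LaminB KD. The mock mean of Pc became 20.9% ± 13.3, beside 5.24% over the whole gene, a scale chosen after seeing the data. For ph-p the difference between AGO2 KD and mock became -6.59 points, still without overlap, and for ph-d -2.58 points with overlap. In ph-p, 16 of 49 windows of 250 bp were mostly repeated, all between 4750 and 11000 bp downstream, and the 3 body peaks of LaminB KD replicate 1 lay between or beyond those runs, beginning at 6647, 9667 and 11206 bp. Where the copies of ph-p and ph-d are identical, absence of a peak gives no reading of polymerase.

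Other Polycomb group genes, listed beside the members, showed the same direction. Of 16 listed, 15 were found and 14 had a peak in all 6 libraries. In AGO2 KD 8, all of them among the 14, were lower and 0 higher, with a median difference of -7.65 points, and in LaminB KD 0 were lower and 0 higher. The largest differences among those lower were -19.3 points for Asx, a subunit of the deubiquitylase that opposes PRC1, -19.2 for Pcl, a PRC2 partner, -15.2 for Kdm2, a PRC1-associated demethylase, and -9.69 for Scm, a SAM domain protein that binds PRC1. Scm had 71.1% and 71.2% in mock against 54.0% and 68.9% in AGO2 KD.

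The trithorax group, which counteracts Polycomb silencing, was read in the same way. All 24 listed genes were found, 21 with a peak in all 6 libraries, and in AGO2 KD 9 were lower and 0 higher, with a median difference of -7.94 points. Of the 9, 7 were among the 21, and Set1 and vtd each had a library without a peak. In LaminB KD 0 were lower and 0 higher. The largest differences among those lower were -25.6 points for mor, -23.8 for osa and -22.4 for brm, all subunits of the SWI/SNF remodeler, and -15.2 for trr, a methyltransferase of histone H3. Beside 46.0 percent of all genes with a peak in all 6 libraries, 8 of 14 is a larger share and 7 of 21 a smaller one, and nothing particular to either list is read from these counts.

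The protein-coding gene whose covered shares were nearest to those of each member over the 6 libraries, by mean absolute difference and leaving out genes within 5 kb, was found as a description. It was CG4733 for Psc (0.321 points), yrt for ph-d (0.525), REPTOR for Su(z)2 (0.899), BicD for Pc (0.945) and regucalcin for ph-p (1.08). For the members with larger shares it was SrpRbeta for Sce (1.65 points), brm for Su(z)12 (2.41), Zw10 for esc (3.36) and MESR6 for E(z) (3.63). The nearest gene of Su(z)12, brm, is itself on the trithorax list, and no other nearest gene was on either list.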

How the data were processed

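Peak lists of 6 immunoprecipitated libraries were used, and the 6 inputs were not analysed here. Per the study's methods and the submitters' notes, reads were trimmed with cutadapt, aligned to dm6 with bowtie2, filtered for mapping quality and duplicates, and called as broad peaks with MACS2 2.1.1.20160309 for each replicate against its input. The authors deposited a score, which is the truncated 10-fold −log10 q-value in at least 99.98% of lines, a fold (ratio of pileup to local background), and p-values and q-values as −log10. Lists were called separately and are not scaled to one another, so a deeper or cleaner library gives more and wider peaks.

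Genes came from Ensembl BDGP6.54, release 115, on 7 chromosomes, with coordinates counted from 1. Covered share is the percentage of a gene under peaks, with an overlap of at least 1 bp counting as a peak. Lower or higher means that both knockdown libraries lay on 1 side of both mock libraries. Group means were tested by two-sided exact permutation over 6 labelings, which cannot reach 0.05. The study's DiffBind test needs reads and was not run. The members and lists were chosen with earlier results of these data known. Named genes were all 9 members, genes overlapping them or starting within 1500 bp, the 4 listed genes with the largest difference per list among those lower or higher, and the nearest gene by pattern. Alternatives covered peak number, threshold, covered length, joining, body start, promoter width, gaps between groups, single libraries and the replicate block. Python 3.11.15, numpy 2.4.6 and pandas 2.3.3 were used, and the covered share was tested on simulated data of 200 genes against counting base by base.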

Additional observations from a re-analysis of the deposited data

How the results depend on the processing

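The median AGO2 KD minus mock difference over the members was -4.90 points, -0.658 with the upper 50% of peaks by score, 0 at equal covered length, and between -7.22 and -0.257 when single libraries were left out. The number of members lower in AGO2 KD was 4, and 1 with the upper 50% of peaks (37.0 percent of genes with a peak in all 6 libraries), 1 at equal covered length, 0 with a gap of at least 10 points (9.76 percent), and 4 to 9 without single libraries. Higher members in AGO2 KD numbered 0, and 2 without AGO2 KD replicate 1. The share over all genes was not computed for that setting, so the 2 cannot be read as an excess. For LaminB KD, 1 member was lower at equal covered length (11.2 percent), and without single libraries 0 to 9 were lower and 0 to 9 higher, and the median ran from -7.29 to 16.3 points around 1.20. The differences of ph-p (0.144 points, body 0.150) at equal peak number, and of Sce (36.6, body 30.4) and Su(z)12 (5.43, body 0.710) at equal covered length, reversed, the latter 2 through AGO2 KD replicate 1 alone, since trimming left both mock libraries and AGO2 KD replicate 2 at 0. That these lists hold fewer or narrower peaks follows from their construction, and the cause beyond it was not tested. With the replicate block, that is within same-numbered pairs, 7 members were lower in AGO2 KD in both pairs, beside 66.9 percent of genes with a peak in all 6 libraries, but the labels share only a number, and same-numbered libraries deviated together in AGO2 KD (correlation 0.227 over 5340 genes) and oppositely in LaminB KD (-0.389). Counting only bases in a unique 50-base stretch, added after seeing the data, left all counts as they were. Members with a promoter peak stayed at 9 in every library with a window of 500 bp, at equal peak number and with peaks joined, and numbered 6 in LaminB KD replicate 2 at the stricter threshold, 4 there with the upper 50% of peaks, 5 in mock replicate 2 and 4 in LaminB KD replicate 1 at equal covered length, and 2 in LaminB KD replicate 2 where peaks had to cover at least 50% of the 500 bp on either side of the most upstream start. No share over all genes is set beside these promoter counts. Depth is unknown, and no comparison of 2 libraries with 2 could reach 0.05.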

Other observations

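The following genes were chosen after their values were seen. pho, whose protein recruits Polycomb complexes to DNA, had 0% of its length under peaks and no promoter peak in any of the 6 libraries, and neither had Utx, a demethylase of the trithorax list. At the other end, Caf1-55, a histone chaperone in PRC2, was covered at 100% in all 6. l(3)73Ah, a RING finger gene, was covered at 100% in every library but AGO2 KD replicate 1, at 63.6%. corto stayed between 4.61% and 6.60% over the 6 libraries. esc and its paralog escl differed in mock, at 67.0% and 87.6% for esc and 13.7% and 55.0% for escl, without overlap.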
